A study of Mus musculus with 8 samples.

Results

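The 10 genes described here, Atf4, Atf3, Atf5, Ddit3, Cebpb, Cebpg, Trib3, Chac1, Gdf15 and Ppp1r15a, encode the transcription factor ATF4 of the integrated stress response, 5 other bZIP transcription factors that act with it, and 4 of its target genes. They were taken by symbol from a count table of 30660 Ensembl gene identifiers. All 10 were found, and all 10 were among the 16150 genes tested. Levels are given in CPM, counts scaled by TMM to a common library size. RNA was sequenced in bulk from cells labelled as primary mouse vascular smooth muscle cells, the contractile cells of the vessel wall, in 8 libraries. The 4 libraries titled sisox6-1 to sisox6-4 came from cells with knockdown of Sox6, a SoxD transcription factor, and the 4 titled nc-1 to nc-4 came from control cells that carry the label WT. The labels give no strain, age or passage of the cells and no time after knockdown. Whether a group's libraries stem from different cultures or mice is not labelled, so each p-value weighs a difference against library spread that may be technical.

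In the integrated stress response, several kinases phosphorylate the alpha subunit of the translation factor eIF2 when amino acids or heme run short, when unfolded protein builds up in the endoplasmic reticulum (ER), or on viral infection. Protein synthesis then falls in general, while the Atf4 messenger is translated more, because upstream reading frames in its leader otherwise keep ribosomes away from the start codon. ATF4 pairs with C/EBP factors on composite C/EBP-ATF response elements, and its targets serve amino acid supply, redox balance, the end of the response and, under lasting stress, cell death. In mouse vascular smooth muscle the branch through the kinase PERK, ATF4 and CHOP is known from work on medial calcification. The counts measure RNA, so they do not show how much ATF4 protein was made.

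The C/EBP-ATF response element was looked for as TGATGNAA on both strands in the 250 bases before each RefSeq transcription start (build GRCm38.p6, the assembly of mm10). The 10 genes had 12 such starts, since Atf5 and Gdf15 were each searched at more than a single start. Of these 12 starts, 2 held the element in this window, those of Chac1 and Atf3. Of 32851 transcription starts of all genes, 3.45% did. Bases farther upstream were not searched, so a gene without a match here may hold one there. Both promoters are shown because they carry the same 8 letters while the RNA of Chac1 was lower in knockdown and that of Atf3 did not pass the test, and the Ddit3 promoter is shown as that of a factor whose RNA was higher and whose window held no match. Capitals mark the match, which reads TTGCATCA on the gene's strand and so lies in reverse. It begins 193 bases before the RefSeq start of Chac1 and 110 bases before that of Atf3. The RefSeq start of Atf3 lies inside the gene as annotated in GENCODE M21. The bases before the annotated upstream end of Atf3, at 191218039 on chromosome 1, were not searched. The windows are chr2:119350992-119351241 (plus strand) for Chac1, chr1:191183334-191183583 (minus strand) for Atf3 and chr10:127290543-127290792 (plus strand) for Ddit3.
Chac1: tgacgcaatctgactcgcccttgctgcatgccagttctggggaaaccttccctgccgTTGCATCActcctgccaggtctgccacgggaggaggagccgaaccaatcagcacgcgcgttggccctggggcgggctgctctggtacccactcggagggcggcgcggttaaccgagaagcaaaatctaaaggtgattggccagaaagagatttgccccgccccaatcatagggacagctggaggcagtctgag
Atf3: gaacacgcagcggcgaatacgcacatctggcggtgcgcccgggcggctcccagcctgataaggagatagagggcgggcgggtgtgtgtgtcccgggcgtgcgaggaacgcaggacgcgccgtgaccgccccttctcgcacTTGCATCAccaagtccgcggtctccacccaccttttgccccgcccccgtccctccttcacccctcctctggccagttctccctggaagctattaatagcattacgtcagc
Ddit3: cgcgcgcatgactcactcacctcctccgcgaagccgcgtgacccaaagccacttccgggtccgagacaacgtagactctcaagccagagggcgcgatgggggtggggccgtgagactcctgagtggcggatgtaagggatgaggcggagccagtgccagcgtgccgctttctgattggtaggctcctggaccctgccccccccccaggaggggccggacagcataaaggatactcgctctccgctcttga
A match is a description of letters, not a site shown to be bound. For every motif only exact matches to the fixed letters searched were counted, so near matches are missing from all counts given here. The Ddit3 window printed above holds such a near match to the ER stress response element, in reverse on the gene's strand. For that element the count below therefore does not show that Ddit3 lacks a site. The ER stress response element and the SOX motif AACAAT, on both strands, were found before none of the 12 starts of the 10 genes, against 0.113% and 9.42% of all starts.

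Knockdown cells had less RNA of Atf4 itself, of Cebpb and of the glutathione-degrading enzyme Chac1, and more of the cytokine gene Gdf15 and of the transcription factors Ddit3 and Atf5. The feedback phosphatase subunit Ppp1r15a was also lower, while Atf3, Cebpg and Trib3 did not pass the test. Of the 10 genes, 3 were higher and 4 lower in knockdown cells at an adjusted p under 0.05 (edgeR quasi-likelihood test, Benjamini-Hochberg adjustment over all tested genes). Of all 16150 tested genes, 25.4% were higher and 26.0% lower by the same rule, and 51.5% in either direction, so 3 and 4 of 10 lie near the background. The groups did not overlap in 6 of the 10 genes and in 46.9% of all tested genes. The changes were small. Gdf15 was 1.71-fold higher and was the only one of the 10 past 1.5 fold, a size that 21.9% of tested genes passed in either direction. The median size of the log2 fold change was 0.30 over the 10 genes and 0.26 over all tested genes.

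**Figure D1:**
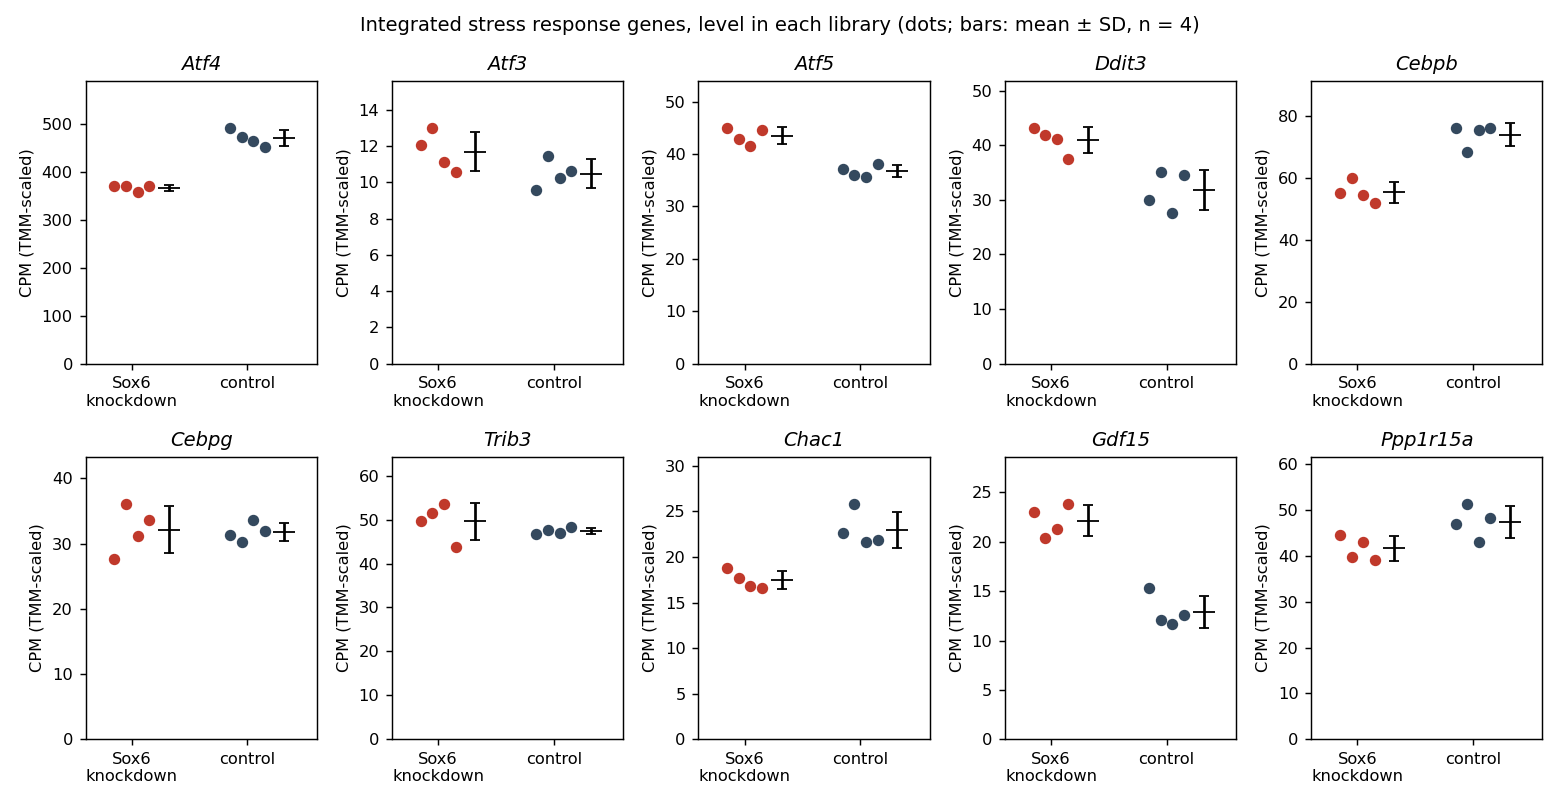
TMM-scaled CPM (vertical axis) of each gene in the 4 Sox6 knockdown libraries (red) and the 4 control libraries (dark), with mean ± SD beside the dots. Knockdown dots lie below all control dots for Atf4, Cebpb and Chac1, and above all of them for Gdf15, Ddit3 and Atf5.

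Sox6 had 2, 4, 0 and 0 counts in the knockdown libraries and 6, 10, 6 and 4 in the control libraries, so the check of the knockdown rests on 6 counts in knockdown and 26 in control libraries (exact permutation test of CPM, two-sided p = 0.0286, the lowest possible with 4 against 4). Each of these counts is even. If both reads of a pair were counted, still fewer RNA fragments lie behind them. Total counts per library ran from 37604102 to 49393224 in knockdown and from 41672921 to 48039788 in control libraries. Of 7 tested smooth muscle markers, 4 were lower in knockdown (summed level 1310 to 1509 CPM in knockdown and 1795 to 2071 CPM in control libraries). Most of that sum was Acta2 (948 CPM in knockdown and 1239 CPM in controls on average) and Cald1 (402 and 650 CPM), with Smtn at 41.9 and 54.6 CPM. The other contractile markers were low, with Myh11 at 7.28 CPM in knockdown and 5.89 CPM in controls, Des at 4.51 and 8.35 CPM, Cnn1 at 1.91 and 2.23 CPM and Lmod1 at 0.434 and 0.586 CPM. Of that list Tagln had 38 counts over the knockdown and 20 over the control libraries and was not tested. Markers of other cells moved with the groups too. All 8 cardiomyocyte markers were lower in knockdown (summed level 26.3 to 99.7 CPM, against 264 to 377 CPM in controls), as were 4 of 5 mesothelial markers (112 to 126 CPM, against 173 to 188 CPM). Of 6 tested endothelial markers, 5 were lower and 1 higher (summed level of all 8 in the list 5.83 to 7.48 CPM in knockdown, against 10.4 to 12.3 CPM in controls). Of 7 fibroblast markers, 3 were lower and 2 higher (1783 to 1954 CPM in knockdown, against 2258 to 2424 CPM in controls), but the lower call of Dpt (adjusted p = 0.0423) was lost without any 1 of knockdown libraries 1, 2 and 3 and control libraries 1, 3 and 4 (adjusted p = 0.0501 to 0.115). Of 8 macrophage markers, 4 were tested, 1 of them higher and 1 lower (58.9 to 63.7 CPM in knockdown, against 62.1 to 68.6 CPM in controls). The lower one, Cd14 (adjusted p = 0.0477), lost the call without any 1 of knockdown libraries 2 and 3 and the 4 control libraries (adjusted p = 0.0541 to 0.148), and with upper quartile (adjusted p = 0.0993) or total count scaling (adjusted p = 0.32). None of these markers was at 0 in all libraries. In bulk RNA, fewer cells of a type and less RNA per cell cannot be told apart, and the part of these cells in the changes below was not tested.

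Atf4 (ENSMUSG00000042406, mm10 chromosome 15, 80255184 to 80257541, 1 merged exon block in GENCODE M21) was the most abundant of the 10 genes in both groups. Per kilobase of merged exons it reached 155 ± 2.80 CPM in knockdown and 199 ± 6.96 CPM in control cells (SD, n = 4 each). Its level was 370, 369, 357 and 370 CPM in knockdown libraries 1 to 4, against 490, 472, 463 and 451 CPM in control libraries 1 to 4. Every knockdown library lay below every control library, and the lowest control exceeded the highest knockdown by more than the range of the knockdown group. The log2 fold change was -0.36 ± 0.04 SE, with a 95% interval of -0.44 to -0.27 (edgeR adjusted p = 2.78e-06).

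Among the bZIP factors that act with ATF4, levels differed widely. On the scale of CPM per kilobase, Cebpb was highest at 36.8 in knockdown and 49.1 in control cells. Ddit3 had 23.9 in knockdown and 18.6 in control cells, and Atf5 had 21.8 and 18.4. Their ranges overlapped within both groups, so their order does not exceed the spread in either. Cebpg had 5.71 CPM per kilobase in knockdown and 5.65 in control cells, and Atf3 had 5.42 and 4.86. The ranges of Cebpg and Atf3 overlapped in knockdown but not in control cells. Of the targets, Trib3 had 23.4 CPM per kilobase in knockdown and 22.3 in control cells, which put it between Ddit3 and Atf5 in knockdown, with overlapping ranges, and above both in controls. Ppp1r15a followed with 14.2 in knockdown and 16.1 in control cells. Gdf15 (11.9 CPM per kilobase in knockdown and 6.98 in control cells) and Chac1 (10.7 and 14.0) exchanged places, with overlapping ranges in knockdown cells and all Chac1 values above all Gdf15 values in controls.

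Cebpb (ENSMUSG00000056501, chromosome 2, 167688915 to 167690418) encodes C/EBP beta, which is made in activating and in short inhibitory forms from 1 exon. Its level was 55.1, 59.98, 54.3 and 51.9 CPM in knockdown libraries and 75.9, 68.3, 75.4 and 76.0 CPM in control libraries. All knockdown values lay below all control values. Cebpb had a log2 fold change of -0.42 ± 0.05 SE (95% interval -0.53 to -0.30, edgeR adjusted p = 1.29e-05). Exons of Tmem189 on the other strand cover 20.7% of its exon length, and without a stated strand setting reads there cannot be told apart. Tmem189 itself was higher in knockdown (34.4 ± 2.06 CPM, against 23.8 ± 1.24 CPM in controls, SD, n = 4 each), the direction opposite to that of Cebpb.

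Ddit3 (ENSMUSG00000025408, chromosome 10, 127290774 to 127296288) encodes CHOP, a C/EBP relative known for driving death under lasting ER stress. It had 43.1, 41.9, 41.1 and 37.5 CPM in knockdown libraries, against 30.0, 35.1, 27.5 and 34.6 CPM in control libraries. The groups did not overlap, although the lowest knockdown and the highest control were close. For Ddit3 the log2 fold change was 0.37 ± 0.07 SE (95% interval 0.21 to 0.52, edgeR adjusted p = 0.000859). Other annotated genes cover 10.9% of the exon length of Ddit3. They are another entry also named Ddit3 on the same strand, and Gm4189 and Mars on the opposite strand. How reads there were assigned is not known, since the counting tool and strand setting were not given. Mars, the methionyl-tRNA synthetase gene, was lower in knockdown (log2 fold change -0.30, adjusted p = 1.21e-05).

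Atf5 (ENSMUSG00000038539, chromosome 7, 44812256 to 44816658), whose messenger is under translational control like that of Atf4 and whose product is linked to the mitochondrial stress response, had 44.9, 42.9, 41.5 and 44.6 CPM in knockdown libraries. Control libraries had 37.2, 36.0, 35.7 and 38.02 CPM, all lower than any knockdown library. That gave Atf5 a log2 fold change of 0.24 ± 0.05 SE (95% interval 0.14 to 0.34, edgeR adjusted p = 0.000515). Exons of Nup62 and Il4i1 on the other strand cover 4.11% of its exon length, where reads cannot be told apart without a stated strand setting. Nup62 was lower in knockdown (50.5 ± 2.03 CPM, against 72.5 ± 2.50 CPM in controls, SD, n = 4 each), and Il4i1 was not called (edgeR adjusted p = 0.245).

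Atf3 and Cebpg did not pass the test. Atf3 (ENSMUSG00000026628, chromosome 1, 191170296 to 191218039), a stress-inducible factor, ran from 10.6 to 13.0 CPM in knockdown and from 9.56 to 11.5 CPM in control libraries, with overlapping groups. Its log2 fold change was 0.16, with a 95% interval of -0.02 to 0.34 (edgeR adjusted p = 0.13). Cebpg (ENSMUSG00000056216, chromosome 7, 35046422 to 35056573), a partner of ATF4 that lacks an activation domain of its own, ran from 27.6 to 36.1 CPM in knockdown and from 30.3 to 33.6 CPM in control libraries. The knockdown range enclosed the control range. The log2 fold change of Cebpg was 0.02, with a 95% interval of -0.14 to 0.17 (edgeR adjusted p = 0.875). Its sign turned to -0.05 without knockdown library 2, to -0.005 without knockdown library 4 and to -0.01 without control library 2.

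The 4 target genes went in different directions. Gdf15 (ENSMUSG00000038508, chromosome 8, 70629393 to 70632456) encodes a secreted stress cytokine of the TGF-beta superfamily and is also a known p53 target. It had 23.0, 20.4, 21.3 and 23.9 CPM in knockdown libraries, against 15.3, 12.1, 11.7 and 12.6 CPM in control libraries. All knockdown libraries were above the highest control. Gdf15 had a log2 fold change of 0.78 ± 0.09 SE (95% interval 0.59 to 0.96, edgeR adjusted p = 3.55e-06), at the 85.4 percentile of tested genes by size.

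Chac1 (ENSMUSG00000027313, chromosome 2, 119351229 to 119354381) encodes an enzyme that breaks down glutathione. It had 18.8, 17.7, 16.8 and 16.6 CPM in knockdown libraries, against 22.6, 25.8, 21.6 and 21.9 CPM in control libraries. The groups did not overlap, and control library 2 was the highest. Chac1 had a log2 fold change of -0.40 ± 0.07 SE (95% interval -0.55 to -0.24, edgeR adjusted p = 0.000293).

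Ppp1r15a (ENSMUSG00000040435, chromosome 7, 45522916 to 45526268) encodes GADD34, which brings a phosphatase to eIF2 and so ends the response. It had 44.5, 39.7, 43.1 and 39.0 CPM in knockdown libraries, against 46.9, 51.3, 43.0 and 48.2 CPM in control libraries. The groups overlapped, since control library 3 lay below knockdown libraries 1 and 3. The log2 fold change was -0.19 ± 0.06 SE (95% interval -0.32 to -0.06, edgeR adjusted p = 0.0176), and the call was lost without knockdown library 2 (adjusted p = 0.0536), knockdown library 4 (adjusted p = 0.0591) or control library 2 (adjusted p = 0.063). With upper quartile scaling it had an adjusted p = 0.0506.

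Trib3 (ENSMUSG00000032715, chromosome 2, 152337422 to 152344032) encodes a pseudokinase that restrains ATF4 and CHOP. It had 49.6, 51.6, 53.6 and 43.7 CPM in knockdown libraries, against 46.6, 47.5, 47.0 and 48.2 CPM in control libraries. Knockdown library 4 lay below all controls and the other knockdown libraries above them. The log2 fold change was 0.07, with a 95% interval of -0.05 to 0.19 (edgeR adjusted p = 0.344). Without knockdown library 4 it was 0.13 (adjusted p = 0.042).

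**Figure D2:**
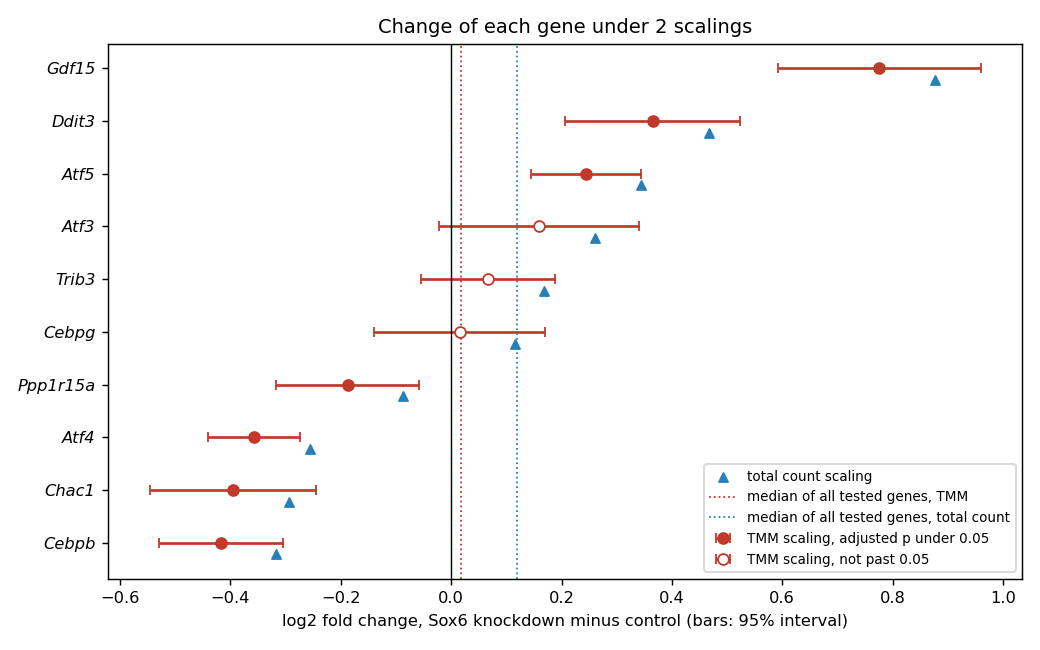
Log2 fold change of each gene (horizontal axis, Sox6 knockdown minus control) with its 95% interval under TMM scaling (red circles, filled where the adjusted p was under 0.05) and its value under total count scaling (blue triangles). Gdf15 stands highest at 0.78 and Cebpb lowest at -0.42, and total count scaling moves every gene to the right by about the shift of the median gene, drawn as dotted lines.

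How the libraries are scaled matters at this size of change. Scaling by total counts in place of TMM put the median gene at a log2 fold change of 0.12, against 0.02. With total counts 5 of the 10 genes were higher and 3 lower, where 36.7% and 18.9% of all genes were. Atf3 (0.26, adjusted p = 0.0175) and Trib3 (0.17, adjusted p = 0.0244) then passed the threshold and Ppp1r15a did not (-0.09, adjusted p = 0.215). Atf4 was at -0.26, Chac1 at -0.29 and Cebpb at -0.32 under that scaling, and Gdf15, Ddit3 and Atf5 were at 0.88, 0.47 and 0.34, all still past the threshold. When edgeR's glmTreat asked for a change beyond 1.2 fold, which 23.6% of all genes passed, 1 gene was higher and 3 were lower. These were Gdf15 (adjusted p = 5.2e-05), Cebpb (0.0072), Atf4 (0.0173) and Chac1 (0.0474), while Ddit3 (0.107) and Atf5 (0.744) did not pass.

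A ratio of counts within a library does not depend on scaling. The log2 ratio of Gdf15 to Atf4 was -4.05 ± 0.09 in knockdown and -5.19 ± 0.14 in control libraries (SD, n = 4 each). That of Ddit3 to Atf4 was -3.16 ± 0.09 in knockdown and -3.89 ± 0.19 in control libraries. Relative to Atf4, then, 6 of the other genes (Gdf15, Ddit3, Atf5, Atf3, Trib3 and Cebpg) stood higher in all knockdown than in all control libraries. By the same measure 56.2% of all tested genes did, since Atf4 itself was lower in knockdown. For Ppp1r15a, Chac1 and Cebpb the groups overlapped in the ratio to Atf4. The share of all tested genes with such overlap is not given here, so the overlap is not read as particular to them. The log2 ratio of Ppp1r15a to Atf4 was -3.14 ± 0.10 in knockdown and -3.31 ± 0.11 in control libraries. The log2 ratio of Chac1 to Atf4 was -4.39 ± 0.08 in knockdown and -4.36 ± 0.11 in control libraries, and that of Cebpb to Atf4 was -2.73 ± 0.09 and -2.67 ± 0.10, with overlapping groups in both. Ddit3 and Chac1 were called in opposite directions above, so a difference in their ratio restates those calls and is not a separate result. Their log2 ratio, Ddit3 to Chac1, ran from 1.18 to 1.29 in knockdown and from 0.35 to 0.66 in control libraries. This pair was singled out, and the share of all gene pairs that separate in this way was not counted.

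**Figure D3:**
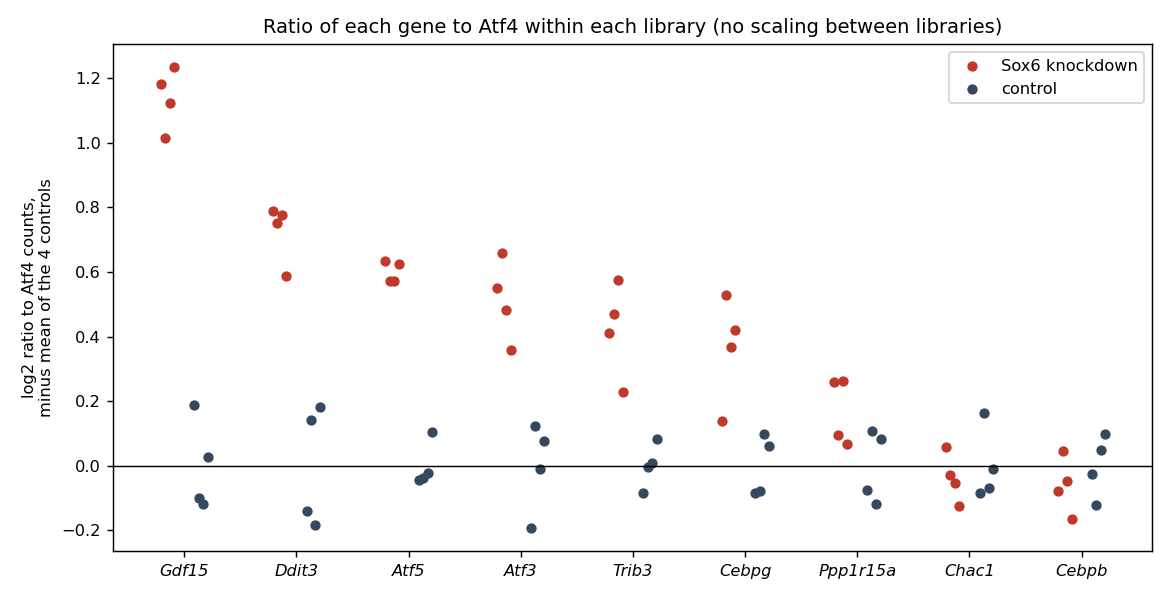
Log2 ratio of each gene's counts to those of Atf4 in the same library (vertical axis), with the mean of the 4 controls subtracted, in Sox6 knockdown (red) and control (dark) libraries. Gdf15 stands 1.14 above the controls on average and Chac1 and Cebpb lie among them.

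By the root mean square difference of log2 CPM from Atf4 over the 8 libraries, each gene centred on its control mean, Chac1 (0.08) and Cebpb (0.09) were the nearest of the 10 genes and Gdf15 (0.79) the farthest. Of 11810 other genes whose average log2 CPM reached 1, the nearest were Gtf2b (0.029), Wwc2 (0.032), Itprid2 (0.033), Clint1 (0.036) and Col1a1 (0.037), each with a log2 fold change between -0.38 and -0.33. The measure holds the difference between the groups as well as the spread between libraries, so a gene with a like fold change scores as near.

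The rest of the pathway was read from lists, each given against the 25.4% higher and 26.0% lower of all tested genes and their median log2 fold change of 0.02. Upstream of Atf4, of 17 genes for eIF2 kinases, phosphatase, eIF2 and its exchange factor eIF2B, 4 were higher and 8 lower (median -0.12). The subunit genes Eif2s3x (78.3 ± 4.34 CPM in knockdown and 107 ± 3.62 CPM in controls, log2 fold change -0.45) and Eif2s1 (191 ± 6.26 and 248 ± 10.1 CPM, -0.38), which encodes the subunit that is phosphorylated, fell, as did Dnajc3 (-0.34), an inhibitor of eIF2 kinases. Oma1, the mitochondrial protease that signals to this pathway, rose (0.23, adjusted p = 0.00778). Dele1, its substrate, was at 0.13 (adjusted p = 0.0254), a call lost without knockdown library 2 (adjusted p = 0.056), control library 1 (adjusted p = 0.0641) or control library 4 (adjusted p = 0.0896). The 4 kinase genes were named as a set after their values were seen. Eif2ak2, which encodes the kinase PKR that responds to double-stranded RNA, fell (271 ± 11.2 CPM in knockdown and 322 ± 14.7 CPM in controls, -0.25, adjusted p = 0.00028), and Eif2ak4, which encodes the amino acid sensor GCN2, was at -0.01 (adjusted p = 0.832). Eif2ak3, which encodes PERK, was at 0.15 (adjusted p = 0.0354), and the call was lost when any single library but knockdown 3 or 4 was left out (adjusted p = 0.0531 to 0.111). Eif2ak1, which encodes the heme-regulated kinase HRI, was at 0.14 (adjusted p = 0.0261), lost without knockdown library 1 or 2 or control library 1 or 2 (adjusted p = 0.0593 to 0.0993). The count of 4 higher was 1 without knockdown library 2 or control library 1, and 2 without control library 2 or 4.

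Downstream, genes for amino acids were mixed. Of 21 genes of amino acid and one-carbon metabolism known as ATF4 targets, 5 were higher and 9 lower (median -0.07). The cystine transporter gene Slc7a11 fell (17.2 ± 1.79 CPM in knockdown and 29.1 ± 0.585 CPM in controls, log2 fold change -0.75 ± 0.07 SE, adjusted p = 5.96e-07), with the serine and glycine enzyme gene Shmt2 (-0.51) and the arginine transporter gene Slc7a1 (-0.48). Cth, which makes cysteine from cystathionine, rose (9.02 ± 1.37 and 4.97 ± 0.403 CPM, 0.86 ± 0.11 SE, adjusted p = 2.09e-05), as did the mitochondrial folate enzyme gene Aldh1l2 (0.56) and the transaminase gene Gpt2 (0.46). Asparagine synthetase, Asns, singled out after its values were seen as a much used reporter of ATF4, was at -0.15 (adjusted p = 0.0221). That call was lost without knockdown library 1 (adjusted p = 0.0687) or 4 (adjusted p = 0.0746), with upper quartile scaling (-0.11, adjusted p = 0.0947) and with total count scaling (-0.05, adjusted p = 0.482). Of 13 genes for tRNA charging and export, 7 were lower and none higher (median -0.12), led by Mars (-0.30), Eprs (-0.26) and Tars (-0.20). With total counts, where 36.7% of all genes were higher and 18.9% lower, 3 of the 13 were higher and 3 lower.

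Of 19 tested genes among other effectors of ATF4 and CHOP, 9 were higher and 4 lower (median 0.19), and Fgf21, with 2 counts over the knockdown and 6 over the control libraries, was not tested. Ddit4, which encodes the mTOR inhibitor REDD1, rose (202 ± 4.58 CPM in knockdown and 114 ± 6.62 CPM in controls, log2 fold change 0.82 ± 0.05 SE, adjusted p = 2.81e-09). The genes of the BH3 death proteins PUMA, Bbc3 (0.88), and BIM, Bcl2l11 (0.54), rose as well. The glycoprotein hormone gene Stc2 (-0.43), the bZIP repressor gene Nfil3 (-0.40) and the growth factor gene Vegfa (-0.38) fell. Of 10 p53 targets that also answer to stress, 8 were higher and 1 lower (median 0.39), the highest share called higher among the pathway lists. The lists were chosen with earlier results of these data known, so this rank is a description only. Trp53inp1 rose most (202 ± 14.1 CPM in knockdown and 86.9 ± 3.64 CPM in controls, 1.21 ± 0.05 SE, adjusted p = 2.67e-10), followed by Bbc3, which stands in both lists, and Sesn1 (0.64). The lower one, Btg2 (-0.16, adjusted p = 0.0156), was not called without knockdown library 2 (adjusted p = 0.054) or control library 1 (adjusted p = 0.0508).

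The ER arms of the unfolded protein response that do not run through eIF2, those of IRE1 and ATF6, were read as a single list. Of its 20 genes, 2 were higher, 11 lower and 7 not called (median -0.25). The IRE1 and ATF6 arms were not counted apart, so the lower calls do not speak for each arm. The chaperone genes Hspa5 (662 ± 27.6 CPM in knockdown and 1067 ± 21.6 CPM in controls, log2 fold change -0.69 ± 0.04 SE, adjusted p = 6.4e-09) and Calr (-0.57) fell, as did the disulfide isomerase gene Pdia4 (-0.49). Edem1, which marks misfolded glycoproteins for removal, rose (0.38). Atf6b was at 0.11 (adjusted p = 0.0388), lost without any 1 of knockdown libraries 1 and 4 and control libraries 1, 2 and 4 (adjusted p = 0.05 to 0.113), which leaves 1 gene higher in each of these cases. Of 10 genes for mitochondrial protein folding and proteolysis, 2 were higher and 4 lower (median -0.10), with Hspd1 at -0.30, Clpp at -0.24 and Hspa9 at -0.15. The higher ones, Clpx (0.18, adjusted p = 0.0204) and Yme1l1 (0.14, adjusted p = 0.0443), both lost the call without knockdown library 2 or 4 or control library 1 or 2, where none of the 10 was higher. Yme1l1 lost it also without knockdown library 3 or control library 4, where 1 was higher. Of 11 tested genes for other C/EBP and ATF/CREB factors, 1 was higher and 5 lower (median -0.08). Creb3l1 (-0.50), Atf1 (-0.33) and Creb3l2 (-0.24) fell and Atf7 rose (0.26). Batf3 and Batf were not tested for low counts, and Cebpe was not analysed here.

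**Figure D4:**
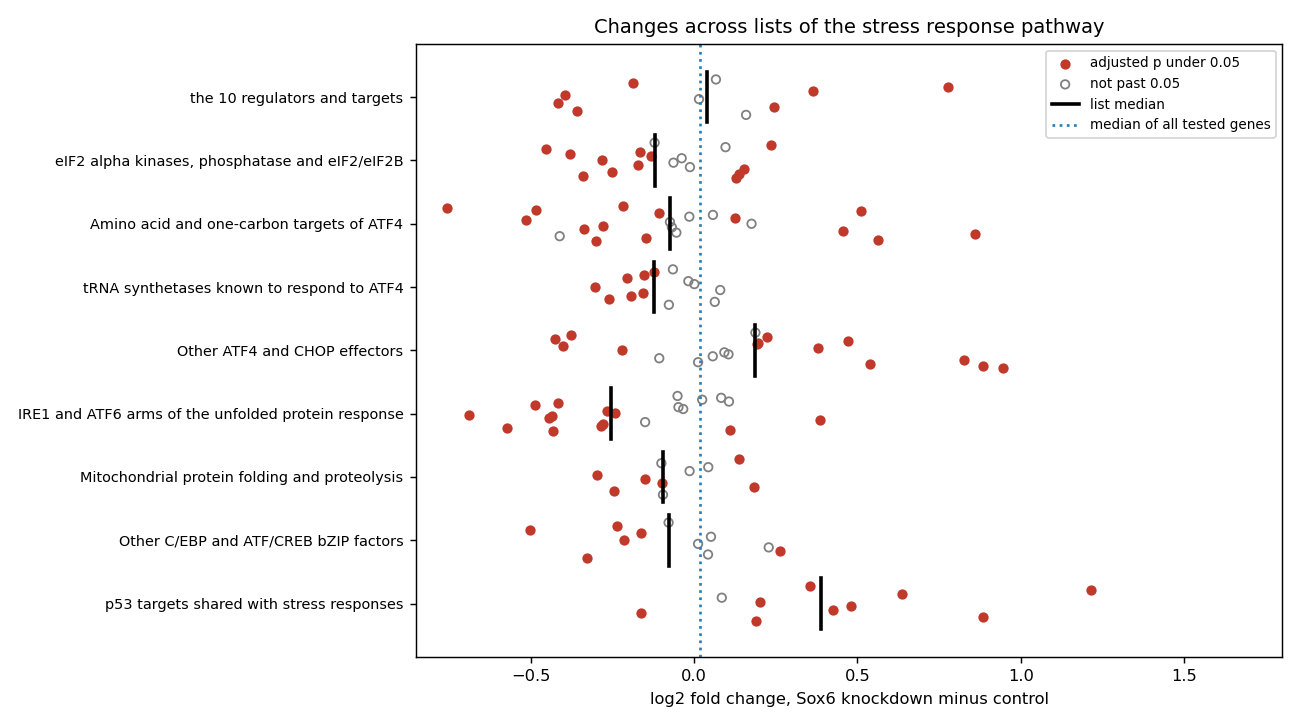
Log2 fold change (horizontal axis, Sox6 knockdown minus control) of every tested gene of each list, red where the adjusted p was under 0.05, with the median of the list (black bar) and of all tested genes (blue dotted line). The list of the IRE1 and ATF6 arms has its median at -0.25 and the p53 targets have theirs at 0.39.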

How the data were processed

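Bulk RNA (TRIzol extraction, NEBNext Ultra libraries, per the labels) was sequenced in 8 libraries, 4 per group. The deposited values are raw counts of reads per gene that the authors did not normalize, per the file headers and values. The submitters' processing notes name mm10 and DESeq2. The aligner, counting tool and strandedness were not given in the sources used here. Between 72.0% and 74.2% of counts from 1 to 40 were even, as when both reads of a pair are counted, so halved counts were tried too.

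GENCODE M21 gave symbols for 30008 of 30660 identifiers. After filterByExpr (minimum count 10), edgeR 4.0.16 (R 4.3.3) scaled counts by TMM and tested them with glmQLFit and glmQLFTest without covariates. Adjusted p under 0.05 was called. SE is the size of the log2 fold change over the root of F, its 95% interval uses the degrees of freedom of the fit, and folds are knockdown over control. CPM use TMM-scaled totals. The script was tested on simulated data. The genes named from each list are the 3 called higher and the 3 called lower with the smallest p. Members and lists were chosen with earlier results of these data known. Alternatives were other scalings, filters and thresholds, DESeq2 1.42.0, limma-voom (limma 3.58.1), a replicate block and leaving out each library.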

Additional observations from a re-analysis of the deposited data

Results flagged for a closer look

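Within groups of 4 libraries, 1 library stood apart from the other 3 in 4 of 144 groups tested (72 genes), or 2.78%, where chance gives about 5%. Atf4 had 356.5 CPM in knockdown library 3, against 369.1 to 370.0 CPM in the other knockdown libraries. Cebpb had 68.31 CPM in control library 2, against 75.41 to 75.98 CPM in the other controls. Calr had 1325 CPM in control library 2, against 1184 to 1206 CPM in the other controls. Pi16, a fibroblast marker, had 1.735 CPM in knockdown library 3, against 1.405 to 1.425 CPM in the other knockdown libraries. Each of these values is nearer to its own group than to the other group.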

How the results depend on the processing

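The calls of Atf4, Cebpb, Chac1, Gdf15, Ddit3 and Atf5 kept their direction and side of the 0.05 threshold in all 17 other fits of the difference from 0 (scalings, filters, tools, block and libraries left out). Of all genes, 4105 were higher and 4206 lower, and 1762 and 2055 beyond 1.2 fold. Total counts gave Atf3 0.26, Trib3 0.17 and Ppp1r15a -0.09, and upper quartile scaling gave Ppp1r15a -0.15. Leaving out 1 library gave ranges of -0.045 to 0.0817 for Cebpg, 0.0299 to 0.13 for Trib3 and -0.23 to -0.15 for Ppp1r15a. The Sox6 difference then ran from -0.128 to -0.087 CPM at a permutation p = 0.0571, the smallest such groups can give.

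Among the 10 genes, 5 were higher with total counts and 1 beyond 1.2 fold. Of all pathway lists together, 30 genes were higher and 49 lower, where 25.4% and 26.0% of all tested genes were. With total counts 46 were higher, where 36.7% of all tested genes were. Beyond 1.2 fold 16 were higher and 16 lower, where 23.6% of all tested genes passed in either direction. These pooled counts are given for their shift between settings, not as a result about the pathway. The eIF2 list had 1 higher at adjusted p under 0.01 or without filter, 2 with DESeq2 and 0 beyond 1.2 fold, and 5 lower with total counts and 2 beyond 1.2 fold. Amino acid genes had 3 lower beyond 1.2 fold. The tRNA list had 1 higher with upper quartile scaling and 3 with total counts, and 3 lower with total counts and 0 beyond 1.2 fold. The IRE1 and ATF6 list had 1 higher at 0.01, without filter, with the block, with DESeq2 and beyond 1.2 fold, 5 with total counts, and 7 lower beyond 1.2 fold. The mitochondrial list had 0 higher at 0.01 and beyond 1.2 fold, 1 with DESeq2 or its size factors, and 1 lower with total counts and 0 beyond 1.2 fold. Other bZIP factors had 3 higher with total counts and 0 beyond 1.2 fold, and 1 lower beyond 1.2 fold. The p53 list had 0 lower at 0.01, with upper quartile scaling, with total counts and beyond 1.2 fold. Eif2ak4 turned to 0.0267 with upper quartile scaling and 0.0879 with total counts, and ran from -0.0357 to 0.0083 when 1 library was left out. Leaving out 1 library, the eIF2 list had 1 to 4 higher, the IRE1 and ATF6 list 1 to 2, the mitochondrial list 0 to 2, and the p53 list 0 to 1 lower. The cause of these shifts was not tested.

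The labels do not say that replicate numbers pair libraries, and deviations of same-numbered libraries correlated between -0.07 and 0.07. With the replicate number as a block, 3917 genes were higher and 4068 lower, and the 3 and 4 calls among the 10 genes did not change in number.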
